A study of Mus musculus with 6 samples.

Results

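Open chromatin was described around 8 genes that encode regulators of ciliated ependymal cells: Gmnc, Mcidas, Foxj1 and the regulatory factor X genes Rfx1, Rfx2, Rfx3, Rfx4 and Rfx7. They are 8 of the 21938 protein-coding genes of the annotation (GENCODE M21, mouse build GRCm38). A window was drawn from 50 kb before to 50 kb after each gene body, and every ATAC-seq peak of the 6 peak lists that touched a window was taken. Peaks of different libraries that shared at least 1 bp were merged, which gave 107 of the 119719 merged regions of the genome. Regions were named by gene and numbered along the chromosome, so that Rfx4_r10 lies between Rfx4_r9 and Rfx4_r11.

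ATAC-seq reads open DNA, because a transposase cuts and tags chromatin that is not packed by nucleosomes. The cells were neural stem cell cultures from the subependymal zone (SEZ) of 10-week-old C57BL/6J mice, and all 6 libraries came from Srr2 del/del mice, in which Srr2, an enhancer downstream of Sox2, had been removed with CRISPR-Cas9. All cultures were first grown as neurospheres with 20 ng/ml EGF and 10 ng/ml FGF. Proliferating cultures (PROLIF, 3 libraries) had then grown for 2 days in vitro on Matrigel with FGF. Early differentiating cultures (DIFF, 3 libraries) had 1 more day with the mitogens withdrawn and 2% FBS. The sample labels and the methods give 2 days for PROLIF, whereas the series' design text gives 3, so whether the states differ in days of culture is not settled. Each library started from 50000 cells, both states carry the replicate numbers 1, 2 and 4, and libraries of wild-type cultures are not part of these results. The study worked with independent Srr2 del/del strains made with different guide pairs, and the labels do not tell which strain or animal a library came from, so every p-value below measures the spread between these libraries only.

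Gmnc, Mcidas and Foxj1 belong to a known regulatory chain. Geminin family proteins Gmnc and Mcidas act early, with E2F factors, to start the multiciliated programme. Foxj1 is the forkhead factor that switches on genes of motile cilia. RFX factors of ciliated cells bind X-box motifs in the promoters of ciliary genes and work beside Foxj1. In the SEZ, ependymal cells that line the ventricle carry motile cilia, whereas neural stem cells carry a single primary cilium. Rfx2 and Rfx3 are the family members best known from ciliated cells, Rfx4 is known from neural progenitors and brain patterning, Rfx1 is expressed in many tissues, and Rfx7 belongs to a branch of the family that lacks the dimerization domain.

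Sequences from regions that differed between the states are given first. The 201 bases around the strongest summit are shown for the called regions inside Rfx4 and Rfx2, for 3 intron regions of Rfx4 with peaks in DIFF alone, and for an Rfx4 intron region and a region upstream of Gmnc with peaks in PROLIF alone. Here and below, a region in PROLIF or DIFF alone is one with peaks in all 3 libraries of that state and in 0 libraries of the opposite state. The sequences were read 5′ to 3′ from the GRCm38 reference, and capitals mark matches to the motifs searched, on either strand: SOX ACAAAG, AP-1 TGANTCA, forkhead GTAAACA, E-box CAGCTG, the half-site of nuclear factor I (NFI) TTGGCA and the RFX half-site GTTGCCA. Other regions that differed are not printed. Of these, Rfx1_r2, Foxj1_r11 and Rfx2_r18 held a match, and Mcidas_r11, Rfx1_r6, Rfx4_r1, Foxj1_r5 and Rfx2_r9 held none. The bases upstream of the Mcidas start (RefSeq, GRCm38.p6) are added because they hold an RFX half-site, which begins 195 bases before the start.
Rfx4_r10, chr10:84803562-84803762, plus strand: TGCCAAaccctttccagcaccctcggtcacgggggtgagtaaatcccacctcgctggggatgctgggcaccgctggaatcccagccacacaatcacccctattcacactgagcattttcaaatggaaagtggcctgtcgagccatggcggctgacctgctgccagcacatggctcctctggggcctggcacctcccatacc
Rfx4_r9, chr10:84778028-84778228, plus strand: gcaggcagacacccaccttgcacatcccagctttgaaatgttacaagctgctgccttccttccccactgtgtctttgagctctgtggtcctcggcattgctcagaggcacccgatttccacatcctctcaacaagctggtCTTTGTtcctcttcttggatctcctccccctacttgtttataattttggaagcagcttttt
Rfx4_r12, chr10:84822891-84823091, plus strand: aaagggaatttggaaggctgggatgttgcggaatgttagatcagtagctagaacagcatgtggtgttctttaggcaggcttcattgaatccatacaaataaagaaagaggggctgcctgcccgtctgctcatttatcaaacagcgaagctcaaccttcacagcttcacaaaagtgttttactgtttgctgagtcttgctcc
Rfx4_r15, chr10:84871398-84871598, plus strand: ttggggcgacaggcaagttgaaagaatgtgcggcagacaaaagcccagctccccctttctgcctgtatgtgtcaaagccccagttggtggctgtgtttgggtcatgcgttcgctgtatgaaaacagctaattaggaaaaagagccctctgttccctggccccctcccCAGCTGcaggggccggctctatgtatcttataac
Rfx4_r17, chr10:84886398-84886598, plus strand: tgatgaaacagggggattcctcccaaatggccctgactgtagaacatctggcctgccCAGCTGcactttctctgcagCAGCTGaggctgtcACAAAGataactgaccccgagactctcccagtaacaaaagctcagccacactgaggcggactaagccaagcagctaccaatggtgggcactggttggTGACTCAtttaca
Gmnc_r8, chr16:26999667-26999867, plus strand: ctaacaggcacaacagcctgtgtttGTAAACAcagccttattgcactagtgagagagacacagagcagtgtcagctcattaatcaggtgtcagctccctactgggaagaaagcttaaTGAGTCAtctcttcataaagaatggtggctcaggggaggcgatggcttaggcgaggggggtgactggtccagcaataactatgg
Rfx2_r8, chr17:56805032-56805232, plus strand: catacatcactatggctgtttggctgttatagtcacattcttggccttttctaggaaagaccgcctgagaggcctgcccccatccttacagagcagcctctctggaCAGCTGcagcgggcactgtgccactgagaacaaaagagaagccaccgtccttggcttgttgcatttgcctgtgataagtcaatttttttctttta
Mcidas upstream, chr13:112993618-112993867, plus strand: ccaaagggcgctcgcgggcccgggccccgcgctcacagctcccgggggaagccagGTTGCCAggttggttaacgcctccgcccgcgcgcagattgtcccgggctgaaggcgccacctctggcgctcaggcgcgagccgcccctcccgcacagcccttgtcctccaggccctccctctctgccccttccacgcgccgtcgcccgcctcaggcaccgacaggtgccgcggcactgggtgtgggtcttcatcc

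The 6 lists held 60006 to 88039 peaks, and the background pileup, which follows depth, was 2.85 to 3.63 reads in 5 libraries and 6.01 reads in DIFF replicate 4, the deepest. A deeper library can call weaker peaks. Of the member regions, 27 were found in 1 library alone (25.2%, against 29.6% of all merged regions). In PROLIF replicates 1, 2 and 4 these numbered 7, 1 and 2, and in DIFF replicates 1, 2 and 4 they numbered 5, 3 and 9. The part of depth in these counts was not tested. Signals below the caller's threshold are not listed, so where a library has no peak the chromatin is not thereby shown to be closed. These are bulk cultures, in which fewer cells with an open site and a site less open in each cell cannot be told apart. The libraries had promoter peaks at 10 of 10 neural stem and progenitor markers in all 6 libraries, against 7 of 10 ependymal markers outside the 8 genes, 4 of 7 neuroblast markers, 6 of 7 oligodendrocyte lineage markers, 2 of 6 microglia markers and 1 of 6 endothelial markers. Over all protein-coding genes the share with a promoter peak in all 6 libraries was 64.4%, and the marker lists were not tested against it. Dcx, Sox10, Cx3cr1, Trem2, Itgam, Cldn5, Cdh5 and Tek had no promoter peak in any library. Pecam1 had one in the 3 PROLIF libraries alone, as 50 of the 21938 protein-coding genes did. By limma a promoter region was called higher in PROLIF at the stem cell marker Nes and the microglia marker P2ry12, and higher in DIFF at the ependymal marker Tm4sf1. The part of these other cells in the results below was not tested.

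Peaks near the cilia regulators were somewhat more numerous in DIFF, but the states overlapped. PROLIF replicates 1, 2 and 4 had 70, 57 and 58 peaks in the 8 windows, and DIFF replicates 1, 2 and 4 had 71, 66 and 87. The means were 61.7 ± 7.23 and 74.7 ± 11.0 peaks (SD, n = 3 each; two-sided exact permutation p = 0.2, where 0.1 is the smallest p that 3 against 3 libraries can give). As a share of each list they were 0.0892% ± 0.0068 in PROLIF and 0.0975% ± 0.0035 in DIFF (SD, n = 3 each; exact permutation p = 0.2). With all lists cut to the same length the difference of the means went from 13 to 6 peaks (exact permutation p = 0.2). With flanks of 20 kb it was 3.67 peaks (exact permutation p = 0.6), and the share of the list was then lower in DIFF (difference -0.00155 percentage points, exact permutation p = 0.9).

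By gene, the share of a library's peaks that fell in the window was higher in all 3 DIFF than in all 3 PROLIF libraries for Rfx4 and Foxj1, and lower for Mcidas. Among the windows of all protein-coding genes, 8.89% were higher without overlap in DIFF and 9.08% in PROLIF, beside 2 and 1 of the 8 genes here. Rfx4 had 13, 11 and 10 peaks in PROLIF replicates 1, 2 and 4 and 16, 13 and 18 in DIFF, or 0.0163% ± 0.00052 against 0.0205% ± 0.0020 of the list (SD, n = 3 each; exact permutation p = 0.1). Foxj1 had 7, 6 and 6 peaks in PROLIF and 11, 9 and 10 in DIFF, or 0.00918% ± 0.00079 against 0.0132% ± 0.0021 (exact permutation p = 0.1). Mcidas had 8, 7 and 7 peaks in PROLIF and 6, 5 and 8 in DIFF, or 0.0106% ± 0.0010 against 0.00821% ± 0.0010 (exact permutation p = 0.1). The plain peak counts of Mcidas overlapped between the states, and those of Rfx4 met at 13. The shares of the other 5 windows overlapped. Around Rfx4 the share also rose over a wider stretch, chr10:84000001-85000000, which holds the window. It was 0.0460%, 0.0451% and 0.0468% in PROLIF replicates 1, 2 and 4, against 0.0661%, 0.0652% and 0.0593% in DIFF. The gain is therefore not shown to be particular to the Rfx4 window. For the matching stretches at Foxj1 and Mcidas the shares overlapped between the states.

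**Figure D1:**
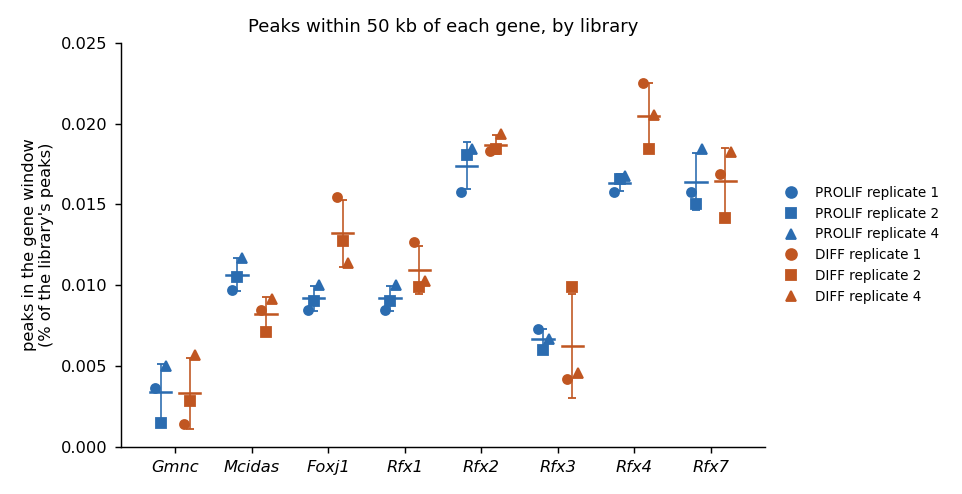
Peaks within 50 kb of each gene as a percent of all peaks of the library (vertical axis, starting at 0), for PROLIF (blue) and DIFF (orange); each symbol is a library, horizontal lines are means and bars are SD (n = 3). The Foxj1 and Rfx4 libraries separate with DIFF above PROLIF, and the Mcidas libraries with PROLIF above DIFF.

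Of the 107 regions, 40 (37.4%) had a peak in all 6 libraries, against 33.5% of all merged regions. Peaks in every PROLIF library and no DIFF library marked 3 regions (2.80%, against 1.79% of all regions), and the reverse marked 9 regions (8.41%, against 3.48%). The first count was 5 without DIFF replicate 4, and the second was 14 without DIFF replicate 1. The remaining regions were in 1 library (27) or in other combinations (28), and the 1-library regions were weak, with fold enrichment over the local background between 2.19 and 4.28. Windows hold neighbouring genes too: 53 regions lay in or within 3 kb of a start of the 8 genes, 35 at or in other genes, and 19 between genes.

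At the top of the chain, Gmnc was the gene of the 8 whose window had no region with a peak in all 6 libraries. It held 8 regions over 178.1 kb. PROLIF replicates 1, 2 and 4 had 3, 1 and 3 peaks there and DIFF had 1, 2 and 5 (exact permutation p = 1). Near its start sites a peak was found in PROLIF replicate 4, at percentile 8.77 of that library's peaks by p-value, and in DIFF replicate 4 at percentile 24.2. The other 4 libraries had none.

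The strongest site of the Gmnc window was Gmnc_r8 (chr16:26999235-26999864, GRCm38), between genes, with its summit 8115 bp upstream of the Gmnc start. Its fold enrichment was 11.3, 7.61 and 6.24 in PROLIF replicates 1, 2 and 4, and no DIFF library had a peak. The peaks rested on 44, 29 and 23 reads at the summit, at percentiles 75.9, 63.0 and 55.0. Its summit window, printed above, carries an AP-1 match and a forkhead match.

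Mcidas, the geminin family member that acts beside Gmnc, lies in a cluster of multiciliation genes with Ccno, a cyclin of multiciliated cells, and Cdc20b, a host of microRNAs known from these cells. Its own start carried only scattered weak peaks. PROLIF replicates 2 and 4 and DIFF replicates 1 and 2 each had 1 peak within 3 kb of it, at percentiles 10.9, 11.3, 21.1 and 24.0, and no 2 of these peaks overlapped, although all lay within 885 bp. Each rested on 13 to 17 reads. In contrast, the promoter of Ccno, 6142 bp upstream by its summit, had one of the strongest peaks of the lists: Mcidas_r1 (chr13:112987346-112988367) had fold enrichments of 14.8, 14.2 and 15.0 in PROLIF and 12.9, 14.9 and 12.7 in DIFF, at percentiles of 97.5 to 98.5.

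Within Mcidas, a region over coding sequence 5072 bp after the start (Mcidas_r6) had a peak in all 6 libraries, with fold enrichments of 7.76, 3.81 and 5.46 in PROLIF and 4.53, 5.56 and 4.14 in DIFF. These overlapped between the states. The called region of the Mcidas window was not at Mcidas: Mcidas_r11 (chr13:113045969-113046924) covers the start of Gpx8, an endoplasmic reticulum peroxidase, inside an intron of Cdc20b. Its fold enrichment was 10.0, 9.13 and 7.82 in PROLIF and 10.6, 12.8 and 12.7 in DIFF, without overlap. On quantile-normalised log2 fold enrichment it was higher in DIFF by 0.46 (SE 0.11, limma adjusted p = 0.00814, n = 3 each), and without DIFF replicate 4 it was not called (0.42, limma adjusted p = 0.064).

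Foxj1, the forkhead regulator of motile cilia, was open at its start in every library. The peak over the start, Foxj1_r10 (chr11:116335216-116336061), had fold enrichments of 8.01, 5.85 and 6.61 in PROLIF and 4.84, 7.48 and 6.54 in DIFF. A second region over coding sequence 2621 bp after the start, Foxj1_r9, had 6.56, 4.58 and 4.97 in PROLIF and 5.58, 4.95 and 6.46 in DIFF. Neither separated the states: the log2 differences, DIFF minus PROLIF, were -0.07 (SE 0.18, limma adjusted p = 0.855) and 0.15 (SE 0.19, limma adjusted p = 0.661).

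The other 4 shared regions of the Foxj1 window were not called either, and 2 of them came near the threshold. Foxj1_r8 (chr11:116329354-116330432), between genes just past the 3′ end of Foxj1, had fold enrichments of 4.82, 4.13 and 3.91 in PROLIF and 5.26, 6.22 and 6.04 in DIFF. The groups did not overlap, and the log2 difference of 0.52 (SE 0.18) missed the threshold of 0.05 by little (limma adjusted p = 0.0551). Foxj1_r6, over the start of Exoc7, a subunit of the exocyst, had 9.61, 5.84 and 6.79 in PROLIF and 8.02, 10.5 and 10.3 in DIFF, and a log2 difference of 0.44 (SE 0.15, limma adjusted p = 0.0555). After normalisation its groups did not overlap, although its fold enrichments as deposited did. The remaining regions had lower values in DIFF by estimate: Foxj1_r7, 16.2 kb after the start, had 7.30, 5.58 and 4.68 in PROLIF and 3.65, 5.05 and 6.16 in DIFF (log2 difference -0.18, SE 0.20), and Foxj1_r3, near the start of Galr2, had a difference of -0.06 (SE 0.17). The values of both overlapped between the states.

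Foxj1 also had 2 of the 9 regions found in DIFF alone. Foxj1_r11 lies 7170 bp upstream of Foxj1 in an intron of Rnf157, with fold enrichments of 3.93, 4.55 and 5.42 in DIFF replicates 1, 2 and 4. Foxj1_r5, in coding sequence of Exoc7 near one of its starts, had 5.65, 7.08 and 3.71.

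Promoters of the RFX genes were open in both states. In all 6 libraries, 6 of the 8 genes (Foxj1 and the 5 RFX genes) had a promoter peak, against 64.4% of all protein-coding genes. Rfx2 had the strongest, at percentiles of 98.8 to 99.6 of each library's peaks, followed by Rfx1 at 96.9 to 98.5, and these ranges did not overlap. Rfx3 lay at 84.4 to 94.6 and Rfx7 at 82.4 to 89.2, and these ranges overlapped. Foxj1, at 67.7 to 87.3, and Rfx4, at 64.4 to 80.8, overlapped each other and were lower in rank than Rfx1 and Rfx2 in every library. In DIFF replicates 1 and 4 the Foxj1 value came from Foxj1_r9 (82.6 and 87.3). The peak over the Foxj1 start, Foxj1_r10, lay at 72.1 and 83.9 there.

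**Figure D2:**
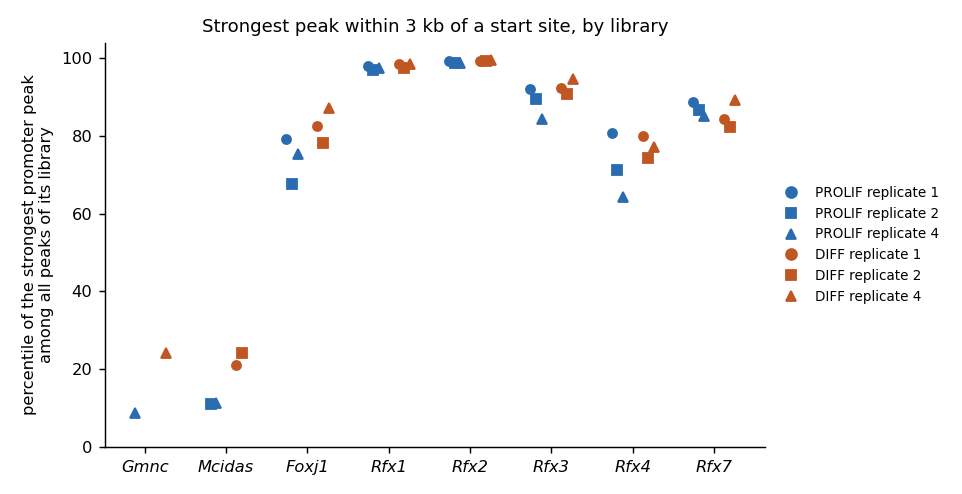
Percentile of the strongest peak within 3 kb of a start site among all peaks of its library (vertical axis, 0 to 100), by gene; blue symbols are PROLIF and orange symbols DIFF libraries, and a library with no peak has no symbol. Rfx1 and Rfx2 sit above 96 in all 6 libraries, and Mcidas and Gmnc are below 25 where they have a peak at all.

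None of the 8 promoter regions shared by all libraries was called by limma. Of the 16165 shared regions within 3 kb of a protein-coding start, 4.35% were called higher in DIFF and 3.41% higher in PROLIF, so a count of 0 among 8 lies near the background. At an unadjusted p under 0.05 the count was also 0, with no share over all promoter regions worked out at that threshold. Their log2 differences ran from -0.16 to 0.27, with adjusted p-values of 0.259 to 0.869. At the Rfx2 start, Rfx2_r15 (chr17:56830721-56831620) had fold enrichments of 17.6, 15.7 and 15.0 in PROLIF and 14.2, 15.7 and 15.7 in DIFF. The interval of the log2 difference there was narrow, from -0.23 to 0.10 (95%).

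At the Rfx1 start, Rfx1_r5 had fold enrichments of 13.1, 11.2 and 11.3 in PROLIF and 10.3, 11.0 and 11.0 in DIFF. At the Rfx3 start, Rfx3_r7 had 13.0, 10.6 and 8.69 in PROLIF and 9.69, 11.1 and 11.5 in DIFF. At the Rfx4 start, Rfx4_r3 had 7.63, 5.93 and 5.39 in PROLIF and 5.47, 5.82 and 5.00 in DIFF. At the Rfx7 start, Rfx7_r5 had 9.92, 8.72 and 8.20 in PROLIF and 7.04, 7.89 and 8.14 in DIFF. At all 4 starts the values of the states overlapped after normalisation, although the deposited folds of Rfx1_r5 and Rfx7_r5 were higher in every PROLIF library. A weaker second region 4303 bp into Rfx4, Rfx4_r5, gave the highest of these differences, 0.27 (SE 0.15, limma adjusted p = 0.259).

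Over the 40 shared regions, few were called. Limma called 2 regions higher in DIFF (5.0%, against 6.92% of all shared regions) and 1 higher in PROLIF (2.5%, against 8.9%). At an unadjusted p under 0.05 the counts were 7 and 3, with no share over all shared regions worked out at that threshold. Without PROLIF replicate 1, 5 were called higher in DIFF, and without DIFF replicate 4, 1 was. The count higher in PROLIF was 2 without PROLIF replicate 4 and 0 without DIFF replicate 2. With a library left out, the shares over all shared regions were not worked out. The median log2 difference was 0.02, beside 0.03 over all 40102 shared regions, with 22 regions above 0 and 18 below. Normalised values did not overlap, with DIFF higher, in 10 of the 40 regions (16.6% of all shared regions), and with PROLIF higher in 1 (15.5%). Of those 10, 2 were the called regions and the others had log2 differences of at most 0.52.

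**Figure D3:**
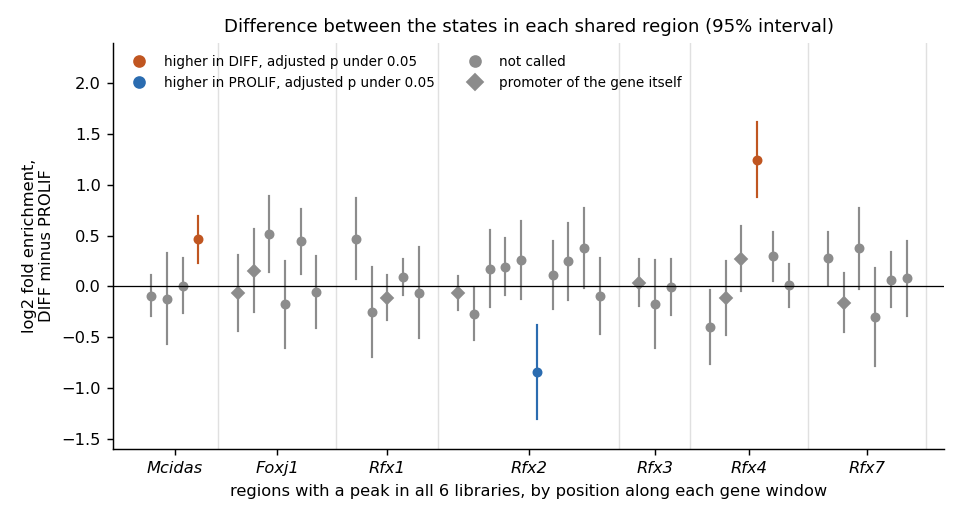
Log2 fold enrichment, DIFF minus PROLIF, after quantile normalisation (vertical axis) for the 40 regions with a peak in all 6 libraries, ordered from upstream to downstream in each gene window; points are limma estimates, lines are 95% intervals and diamonds mark the gene's own promoter. The 2 orange points, in the Mcidas and Rfx4 windows, and the blue point, in Rfx2, passed an adjusted p of 0.05; Gmnc had no shared region.

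Rfx4, the family member tied to neural progenitors, held the largest difference. Rfx4_r10 (chr10:84803308-84804133) lies in an intron, 47.6 kb after the start. Its fold enrichment was 6.29, 4.06 and 3.64 in PROLIF replicates 1, 2 and 4 and 9.81, 9.99 and 10.7 in DIFF replicates 1, 2 and 4. All DIFF values were above all PROLIF values, with means of 4.66 ± 1.43 and 10.2 ± 0.494 (SD, n = 3 each). On the normalised log2 scale the difference was 1.25 (SE 0.18, limma adjusted p = 0.000106). In ranks, the region moved from percentiles of 14.5 to 51.6 in PROLIF to 75.2 to 84.3 in DIFF.

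The next intron region, Rfx4_r11, 54.5 kb after the start, was absent from PROLIF replicate 1 and had 3.30 and 3.64 in PROLIF replicates 2 and 4, against 4.75, 7.83 and 6.70 in DIFF. It was not in all 6 lists and so was not tested by limma. Further along, Rfx4_r12, 66.9 kb after the start, had a peak in DIFF alone, at 4.53, 7.08 and 6.27. Rfx4_r15, 115.4 kb after the start, was likewise in DIFF alone, at 4.75, 5.56 and 4.85. These intron regions had their higher values, or their only peaks, in DIFF, but they do not form an unbroken run. Between Rfx4_r12 and Rfx4_r15 lies Rfx4_r14, where the states overlapped and the highest fold enrichment, 16.1, was in PROLIF replicate 1. Past Rfx4_r15 lies Rfx4_r17, with peaks in PROLIF alone.

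The third intron region found in DIFF alone, Rfx4_r9, lay 22.1 kb after the start with fold enrichments of 3.67, 4.30 and 3.71. Just 789 bp before it, Rfx4_r8 went the other way in part, with a peak in all 3 PROLIF libraries (4.78, 5.58 and 3.64) and in DIFF replicate 4 (3.28). Rfx4_r17, 130.4 kb after the start, had peaks in PROLIF alone, at 8.88, 4.31 and 7.21. Another region in DIFF alone, Rfx4_r1, was 48.8 kb upstream in an intron of Polr3b, a subunit of RNA polymerase III. Thus 5 of the 22 regions in the Rfx4 window (4 DIFF and 1 PROLIF) were marked by peaks in all 3 libraries of a single state and in none of the opposite state, against 3.48% and 1.79% of all regions. The strong intron region Rfx4_r14, 96.7 kb after the start, had peaks in all 6 libraries and was not called (log2 difference 0.29, SE 0.12, limma adjusted p = 0.0928). By its lowest fold the strongest shared site of the window was Rfx4_r21, the start of the neighbour Ric8b. Its fold enrichments were 14.5, 12.9 and 15.4 in PROLIF and 12.8, 15.2 and 14.0 in DIFF.

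**Figure D4:**
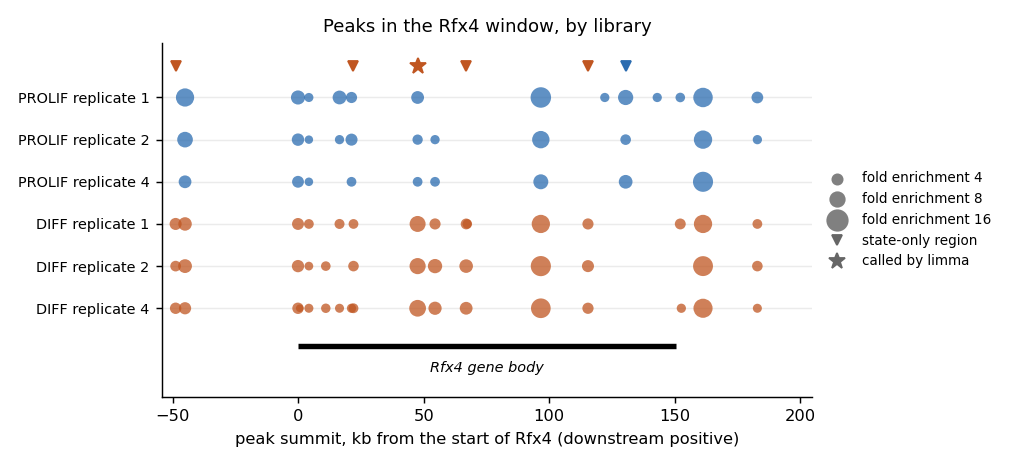
Peaks in the Rfx4 window by library (rows), placed by the distance of the region's summit from the Rfx4 start in kb (horizontal axis); circle area is proportional to the fold enrichment of the best peak, the black bar is the gene body, triangles mark regions with peaks in all 3 libraries of a single state and in 0 of the opposite state and the star the region called by limma, in the colour of the higher state. Circles at 47.6 kb are larger in the 3 DIFF rows (9.81 to 10.7) than in the 3 PROLIF rows (3.64 to 6.29).

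In Rfx2, with Rfx3 the member best known from ciliated cells, 1 region was called in the opposite direction. Rfx2_r8 (chr17:56804591-56805417) overlaps a coding exon 25.9 kb after the start. Its fold enrichment was 10.3, 8.37 and 6.45 in PROLIF replicates 1, 2 and 4 and 5.05, 3.08 and 5.13 in DIFF replicates 1, 2 and 4. The groups did not overlap, with means of 8.38 ± 1.93 and 4.42 ± 1.16 (SD, n = 3 each), and the log2 difference was -0.84 (SE 0.22, limma adjusted p = 0.0128). Without DIFF replicate 2, the lowest library, the difference was -0.54 and was not called (limma adjusted p = 0.0737). A region 909 bp from it by summit, Rfx2_r9, had peaks in PROLIF alone, at 3.27, 2.66 and 2.65.

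The other shared regions of the Rfx2 window were not called. Their log2 differences were above 0 at Rfx2_r2 (0.38), Rfx2_r4 (0.25), Rfx2_r6 (0.11), Rfx2_r10 (0.26), Rfx2_r11 (0.19) and Rfx2_r12 (0.17). They were below 0 at Rfx2_r1 (-0.09), Rfx2_r14 (-0.27) and Rfx2_r15 (-0.07). Normalised values did not overlap, with DIFF higher, at Rfx2_r2 and Rfx2_r12. The Rfx2 window had 10 regions with peaks in all 6 libraries, the most of the 8 genes, and 4 of them lay in Rfx2 introns. Rfx2_r11, 20.6 kb after the start, had fold enrichments of 10.1, 8.95 and 8.25 in PROLIF and 9.87, 9.10 and 11.3 in DIFF. Rfx2_r14, 11.0 kb after the start, had 13.6, 12.5 and 9.19 in PROLIF and 9.88, 10.1 and 8.47 in DIFF, and a log2 difference of -0.27 (SE 0.12, limma adjusted p = 0.157). The region of this window found in DIFF alone, Rfx2_r18, overlaps a coding exon of the neighbour Acsbg2 and had 3.88, 3.82 and 3.56.

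**Figure D5:**
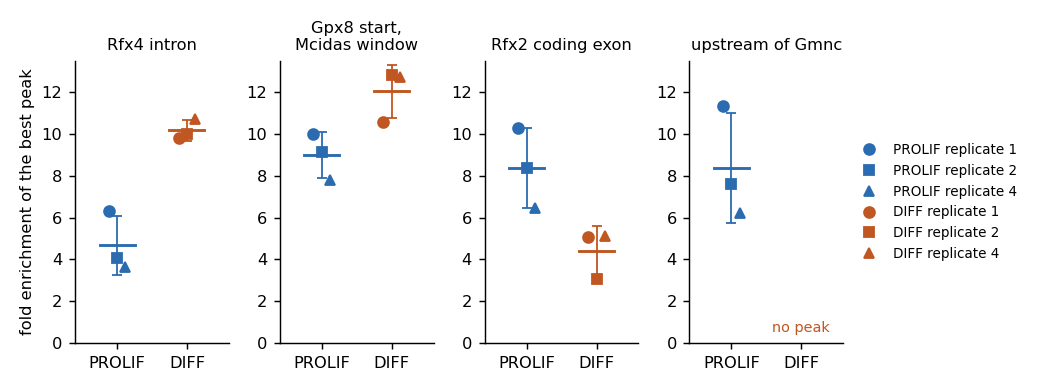
Fold enrichment of the best peak (vertical axis, starting at 0) in PROLIF and DIFF for the 3 regions called by limma and for the region upstream of Gmnc; symbols are libraries, horizontal lines are means and bars are SD (n = 3). DIFF is above PROLIF in the Rfx4 intron and at the Gpx8 start, PROLIF is above DIFF in Rfx2, and no DIFF library has a peak upstream of Gmnc.

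Rfx1, Rfx3 and Rfx7 had no region called by limma. Rfx3, the longest of the genes, had only 7 regions in its window of 349.4 kb, of which 3 were in all 6 libraries: its start and 2 intron regions. The intron region Rfx3_r3 had fold enrichments of 13.0, 11.9 and 10.7 in PROLIF and 8.20, 13.6 and 13.8 in DIFF, a log2 difference of 0.00 (95% interval -0.28 to 0.27). Rfx7 had 19 regions, 6 of them shared, and none with a peak in all 3 libraries of one state and in none of the other. Its strongest site outside promoters was Rfx7_r14, between Rfx7 and Nedd4, at 10.3, 9.81 and 8.08 in PROLIF and 8.81, 11.5 and 8.52 in DIFF, which overlapped.

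Rfx1 had 2 of the 9 regions in DIFF alone. Rfx1_r6 sits in its own first kilobases, 3110 bp after the start, with fold enrichments of 2.20, 2.47 and 1.90 in DIFF replicates 1, 2 and 4. Those folds are low because the local background there is high: the summits held 45, 45 and 59 reads. Rfx1_r2, over the neighbouring gene Palm3, had 4.52, 3.79 and 3.42. By fold enrichment the strongest shared site of the Rfx1 window was Rfx1_r8, over the start of Dcaf15. It had 15.5, 12.6 and 12.4 in PROLIF and 13.2, 14.6 and 14.6 in DIFF. By percentile Rfx1_r5, at the Rfx1 start, ranked above it in every library (96.9 to 98.5, against 94.6 to 98.3).

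Over the 9 regions in DIFF alone, 4 were in Rfx1 or Rfx4 and 5 in neighbouring genes. Their percentiles were 16.9 to 65.8, so none ranked with the strong promoters. In DIFF replicate 2, with a background of 2.96 reads, their peaks held 14 to 45 reads at the summit. The background was 2.97, 2.94 and 2.85 reads in PROLIF replicates 1, 2 and 4. Whether depth had a part in these regions was not tested. The 3 regions in PROLIF alone had percentiles of 22.6 to 75.9.

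Motif matches near the summits of the 107 regions were counted beside those of all merged regions. Within 100 bp of the summit, on both strands, the RFX half-site was in 5 regions (4.67%, against 5.04% of all merged regions), the NFI half-site in 15 (14.0%, against 18.3%), SOX in 21 (19.6%, against 20.2%), E-box in 17 (15.9%, against 19.6%), forkhead in 4 (3.74%, against 2.73%) and the E2F motif GGCGGGAA in 1 (0.935%, against 0.626%). An RFX half-site and an NFI half-site can overlap in the same bases. The full X-box (GTTNCC, 0 to 3 bases, GGNAAC) was in 3 regions (2.80%, against 0.886%): Rfx3_r4, Rfx4_r7 and Rfx7_r19, none of them in all 6 libraries. Rfx3_r4 was a weak peak of PROLIF replicate 1 alone (fold enrichment 3.92). Rfx7_r19 was one of DIFF replicate 4 alone (4.28). Rfx4_r7, in an Rfx4 intron, had peaks in PROLIF replicates 1 and 2 (7.30 and 3.30) and in DIFF replicates 1 and 4 (3.85 and 3.14).

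AP-1 matches were in 9 of the 107 regions (8.41%, against 8.21% of all regions). By state they were in 2 of the 3 regions in PROLIF alone (Gmnc_r8 and Rfx4_r17) and in 1 of the 9 in DIFF alone. Over the whole genome, 31.3% of regions in PROLIF alone and 4.73% of those in DIFF alone held one. Rfx4_r10 and Rfx2_r8 had an NFI half-site and an E-box, respectively. RefSeq promoters of 300 bases were matched for 7 of the 8 genes (9 promoters), and 1 held an RFX half-site, that of Mcidas, against 4.38% of 32851 promoters.

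Promoter peaks were also counted at other genes of the same system, with the 64.4% of all protein-coding genes as the background. Of 5 other RFX genes and partners, 4 had a promoter peak in all 6 libraries, with Rfx5, a regulator of MHC class II genes, at percentiles of 90.8 to 97.8 and Rfx6, known from the pancreas, at 21.8 to 44.5. Rfx8 had one in PROLIF replicate 4 alone. Of 13 further regulators of multiciliation, 12 had one in all 6 libraries, from E2f5, an E2F partner of Gmnc and Mcidas (99.2 to 99.6), down to Deup1, a deuterosome protein (31.0 to 65.7). Foxn4, a forkhead factor that acts with Foxj1, had promoter peaks in the 3 DIFF libraries alone, at percentiles of 24.3, 16.9 and 37.5. Of all 21938 protein-coding genes, 82 had promoter peaks in the 3 DIFF libraries alone and 50 in the 3 PROLIF libraries alone.

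Promoter calls in the ciliary machinery were 1 in 20 genes or fewer in each direction, where 3.48% of all protein-coding genes had a promoter region called higher in DIFF and 2.56% one called higher in PROLIF. Of 20 motile cilia genes, 19 had promoter peaks in all 6 libraries, 1 was called higher in DIFF (Dnaic1, a dynein intermediate chain) and 1 higher in PROLIF (Cfap53). Dnah5, an outer arm dynein heavy chain, had no promoter peak. Of 20 genes of intraflagellar transport and the primary cilium, 19 had promoter peaks in all 6 libraries and 1, Ift46, was called higher in DIFF. Bbs1, a BBSome subunit, had a peak in PROLIF replicate 1 and in the 3 DIFF libraries. Of the ependymal markers outside the 8 genes, Tmem212 and Rarres2 had no promoter peak, and Ccdc153 had one in 2 libraries. A peak within 3 kb of a start can belong to a neighbouring gene.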

How the data were processed

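The 6 ATAC-seq libraries were grouped by the state and replicate number of the labels. The authors trimmed reads with Cutadapt and Trimmomatic, mapped them to GRCm38 with Bowtie2, used Picard to mark duplicates, and ran MACS2 on each library in narrow mode with no model (FDR 0.05). Versions, read extension, any transposase shift and any blacklist, all of which can move peak edges, are not given in the sources used here. Each deposited list gives positions, a score (10 times the −log10 q, cut to whole numbers), a fold enrichment, which is a ratio to background near the peak, and −log10 p and q. Read totals were not used here. Pileups and backgrounds were solved from the deposited fold and p under a Poisson model, and came out whole for 100% of 1500 peaks tested per library (tolerance 0.01 in log10 p).

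Peaks on chromosomes 1 to 19, X and Y were merged and placed on GENCODE M21. State-only regions have a peak in all 3 libraries of one state and none of the opposite state. A promoter is within 3 kb of a start site. The percentile of a peak is its rank by −log10 p among the peaks of its library. For the 40102 regions in all 6 libraries, log2 fold enrichment of the best peak was quantile-normalised and fitted with limma 3.58.1 (R 4.3.3, trend), with Benjamini-Hochberg adjustment over all of them. For single values a two-sided exact permutation test of 3 against 3 libraries was run. Fold enrichment, unlike depth-scaled coverage, depends on each library's own background, and testing only regions in all 6 lists leaves out those that a state lacks. The scripts were tested on simulated data.

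Named were each gene's promoter regions, every state-only and called region, the shared region of each window with the highest lowest fold, and the regions named beside them, which were chosen after their values were seen, as were the genes with a promoter peak in no library. The genes and lists were chosen with earlier results of these data known. Dnai1 and Dnai2 of the cilia list were matched as Dnaic1 and Dnaic2. Alternatives were a q of 0.01, lists of equal length, flanks of 20 kb or none, a cover of 50%, normal scores of ranks, promoters of 1 kb, each library left out, and the replicate block. The tools were samtools 1.23.1 and, in Python 3.11.15, matplotlib 3.10.9, pysam 0.24.0, scipy 1.17.1, pandas 2.3.3 and numpy 2.4.6.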

Additional observations from a re-analysis of the deposited data

How the results depend on the processing

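The gain at Rfx4_r10 was the firmest result: its log2 difference ran from 1.14 to 1.37 over 10 alternatives and was called in all 11 that tested it, ranks included. The Gpx8 start (Mcidas_r11) ran from 0.42 to 0.50 and lost its call without DIFF replicate 4 (0.42, limma adjusted p = 0.064). Rfx2_r8 ran from -1.002 to -0.54 and lost its call without DIFF replicate 2 (-0.54, limma adjusted p = 0.0737). Uncalled promoter regions changed sign as follows: Rfx3_r7 to -0.0195 without PROLIF replicate 4 and -0.0105 without DIFF replicate 4 (up to 0.0749 when other libraries were left out), Foxj1_r10 to 0.0672 without DIFF replicate 1 (down to -0.154), and, by normal scores of ranks (in score units), Rfx1_r5 to 0.110, Rfx4_r3 to 0.0741, Foxj1_r10 to 0.0770 and Rfx2_r15 to 0.146.

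With flanks of 20 kb the share of peaks in the windows was lower in DIFF (a difference of -0.00155, exact permutation p = 0.9), 5 regions were in DIFF alone and 1 was called higher in DIFF. The gene bodies alone held 19 regions in all 6 libraries, 4 in DIFF alone and 1 called higher in DIFF, which follows from fewer regions. A cover of 50% left 25 regions in all 6 libraries, 1 called higher in DIFF and 0 higher in PROLIF, because Rfx4_r10 and Rfx2_r8 then no longer counted in every library and were not tested. Normal scores called 5 regions higher in DIFF; the cause was not tested. Leaving out each library in turn gave 3 to 5 regions in PROLIF alone (5 without DIFF replicate 4), 9 to 14 in DIFF alone (14 without DIFF replicate 1), 1 to 5 called higher in DIFF (5 without PROLIF replicate 1, 1 without DIFF replicate 4) and 0 to 2 called higher in PROLIF (2 without PROLIF replicate 4, 0 without DIFF replicate 2). With lists of equal length or a q of 0.01 no count of regions moved by over 1.5 times. No named region gained or lost its call there. Shares over all regions were not worked out for the alternatives of this section.

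With the replicate block, 5 regions counted as PROLIF-only and 16 as DIFF-only, since that rule asks for a difference in only 2 of 3 pairs, and limma called 3 regions higher in DIFF and 1 higher in PROLIF. Peaks in the windows differed by 13.0 (exact sign flips, p = 0.25, the smallest possible). Deviations of same-numbered libraries correlated at 0.0723, 0.118 and 0.103 over 39088 autosomal regions, and those of different numbers at -0.0890 to -0.00472, so each library correlated best with its own number, but not every pair passed 0.1 and the numbers were not taken as pairs. A term for the range of the number in the peak names, added after seeing the data, called 2 regions higher in DIFF and 1 higher in PROLIF.

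With 3 libraries per state an exact test cannot go below 0.1, and the state-only regions rest on 14 to 59 reads at their summits.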
